A study of Populus davidiana with 6 samples.

Results

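The 110 genes described here were annotated leaf genes that were already well expressed in control plants and stood higher after 10 min of air-drying. They were chosen by their values. Expression was given in FPKM, the number of fragments relative to transcript length (in kilobases) and to the library's fragments, and a gene's level in a library was the sum over its transcripts. A gene was kept when it had at least 1 annotated transcript, a control mean from 10 to under 500 FPKM, and a lowest air-dried value at least 1.5 times its highest control value. Of 40537 gene identifiers, 38379 had an annotated transcript and 11426 of these had a control mean in that range. The 110 genes were 0.963% of these 11426, which are called the level-matched genes below. The name means only that they share this range of control means, and they were not matched gene by gene. Because the 6 libraries themselves chose the genes, the rises below are a description and carry no evidence of their own.

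All 6 libraries were leaf RNA of Populus davidiana, an Asian aspen, of the single cultivar Odae19, labelled as tolerant to drought. All plants were propagated from internodes on a sucrose medium with the auxin naphthalene acetic acid and were about 6 weeks old at treatment. The 3 control libraries came from plants with no drying. The 3 air-dried libraries came from plants pulled out of the medium, rinsed in sterile water and exposed to the air for about 10 min. Whether control plants were also pulled out and rinsed is not stated, so the effect of drying cannot be told apart from that of handling. The replicates are described as triplicate leaf samples, and nothing says that they came from separate plants, so the spread behind each p-value may be technical.

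Leaves of plants grown in culture usually have thin cuticles and stomata that close poorly, so they lose water fast in open air. Water loss in a leaf is known to set off calcium and reactive oxygen signals within minutes and then the hormone abscisic acid, which closes stomata and changes transcription. An mRNA that is already abundant can rise quickly only if its gene is transcribed strongly or its decay slows, and transcripts of early stress-response genes are often both strongly induced and short-lived. In such bulk leaf RNA, a change in the number of cells of a type and a change in RNA per cell cannot be told apart. The files give no gene names (0 names in 112919 transcript lines), so the functions of the 110 genes are not described. By a fixed rule only 2 of them are printed by identifier, and the others are given by their place when ordered by the ratio of the lowest air-dried to the highest control value.

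Across the 22559 tested genes the libraries had similar medians, from 11.3 to 11.9 FPKM, and their log2 values correlated across genes at 0.911 to 0.959. Genes are not independent replicates, so these correlations are descriptive. Very short transcripts, the 526 that spanned at most 150 bp, took 38.6% to 77.2% of a library's summed FPKM, and none of them (0) belonged to the 110 genes. FPKM carries no fragment counts, so the depth behind each value is unknown and no counting interval can be given.

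In the controls the 110 genes were close in level to the other genes of their range. Their median was 22.4, 21.1 and 20.9 FPKM in controls 1 to 3, against 23.7, 24.2 and 23.4 FPKM for the level-matched genes. After drying their median was 62.7, 53.4 and 57.2 FPKM in air-dried 1 to 3. The level-matched genes stayed at 24.5, 23.7 and 24.6 FPKM. Among all annotated genes ranked by level, the median rank of the 110 genes was 6246 to 6713 before drying and 2264.5 to 2428 after it. In each control 1 of them was among the 1000 most abundant annotated genes, whereas 21 or 22 were there in each air-dried library. Together they held 0.345%, 0.359% and 0.384% of the FPKM of annotated genes in controls 1, 2 and 3. After drying the share was 1.13%, 1.13% and 1.17%, so it was about equal in the 3 air-dried libraries.

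**Figure D1:**
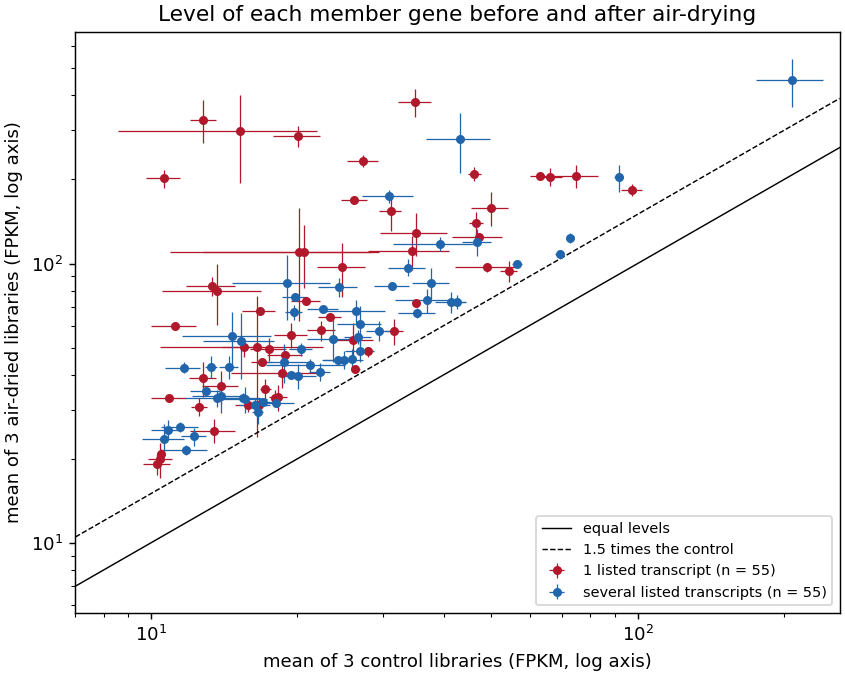
Each point is 1 of the 110 genes, with its mean FPKM over 3 controls on the horizontal log axis and its mean over 3 air-dried libraries on the vertical log axis, and bars give the SD. Genes with 1 listed transcript (red) hold most of the positions far above the 1.5-fold line, which the rule fixed as the lower edge.

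The size of the rise was uneven, with many moderate rises and a few very large ones. The ratio of the air-dried to the control mean had a median of 2.44, with quartiles of 1.96 and 3.26, and ran from 1.57 to 25.6. It was at least 2 in 77 genes, at least 3 in 38, at least 4 in 18, at least 8 in 6 and at least 16 in 3. Among the level-matched genes, 95 had a mean ratio of at least 2, so the rule left out 18 of them whose groups overlapped or came too close. At a ratio of at least 4 the 110 genes held all 18 of the level-matched genes that reached it. All 3 air-dried libraries were at 100 FPKM or more in 26 genes and at 200 or more in 7. All 3 controls were at 100 FPKM or more in 1 gene.

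POPTR_0007s01110 had the largest ratio of all. It is an annotated gene with 1 listed transcript on the minus strand of chromosome 7 (602330 to 603357, as the files give it, with no genome build named). Its level was 13.2, 13.4 and 11.9 FPKM in controls 1 to 3 and 386, 272 and 325 FPKM in air-dried 1 to 3. The groups lay far apart, with air-dried 2 the lowest of its group at 20.4 times the highest control. The means were 12.8 ± 0.797 FPKM and 328 ± 57.0 FPKM (SD, n = 3), and the log2 fold change on the log2(FPKM + 1) scale was 4.56 (SE 0.138; limma with Benjamini-Hochberg adjustment, adjusted p = 4.41e-05). This places it between ranks 9605 and 10366 among annotated genes in the controls and between ranks 272 and 340 after drying.

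POPTR_0010s24290.r1 was the most abundant of the 110 genes before drying and also after it. It has 1 annotated and 1 assembled transcript on the minus strand of chromosome 10 (20577587 to 20579210). Its level was 226, 228 and 170 FPKM in controls 1 to 3 and 547, 373 and 439 FPKM in air-dried 1 to 3. Control 3 was the lowest control and air-dried 1 the highest air-dried library, and the groups were separate, as the rule requires. The means were 208 ± 32.7 FPKM and 453 ± 88.3 FPKM (SD, n = 3), and the log2 fold change was 1.12 (SE 0.187, adjusted p = 0.0294 by limma). This call was lost when a single library was left out (controls 1, 2 and 3 and air-dried 1 and 3, limma adjusted p = 0.0636 to 0.121) and with a replicate block (limma adjusted p = 0.0696).

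The genes in places 2 to 4 had control means of 10.6, 20.05 and 34.9 FPKM, where the level-matched median was 23.9 FPKM. The gene in second place, on chromosome 1, went from 9.65, 11.1 and 11.2 FPKM in the controls to 219, 188 and 198 FPKM after drying. The gene in the third place, on chromosome 8, went from 17.6, 20.7 and 21.9 FPKM to 260, 311 and 287 FPKM. The gene in the fourth place, on chromosome 3, went from 34.6, 37.8 and 32.3 FPKM to 424, 366 and 342 FPKM. In these 3 genes the replicates of each group lay close together, with the highest coefficient of variation (SD over mean) at 11.2%. The order of the air-dried libraries differed between them, with air-dried 1 highest in 2 and air-dried 2 in 1. Of the first 10 genes in this order 9 had 1 listed transcript, and of the first 20 it was 16, against 39 of the other 90.

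Places 7 to 9 were all on chromosome 10, on which 10 of the 110 genes lay. The gene in place 7 measured 25.1, 25.5 and 28.0 FPKM in the controls and 170.5, 169 and 168 FPKM after drying. The gene in place 8 measured 13.4, 11.8 and 14.9 FPKM and then 83.3, 76.4 and 89.5 FPKM, and the gene in place 9 measured 34.2, 26.8 and 31.5 FPKM and then 184, 167 and 172 FPKM. The air-dried libraries of place 7 were nearly equal, with a coefficient of variation of 0.696%. The smallest of all after drying was that of the gene in place 15, on chromosome 4, at 0.466%. Its controls ran from 18.5 to 20.9 FPKM, and its air-dried libraries, at 75.5, 76.0 and 75.4 FPKM, were nearly equal.

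Genes that were abundant before drying had moderate ratios. The second most abundant in the controls, in place 73, measured 93.0, 96.5 and 102.7 FPKM there and 180.5, 176 and 193 FPKM after drying. The third, in place 56, measured 93.4, 91.9 and 89.5 FPKM and then 191, 189 and 229 FPKM. Both lie on chromosome 6, on opposite strands and 51995 bp apart. The fourth, in place 52 on chromosome 8, measured 69.9, 70.8 and 84.0 FPKM and then 184, 211 and 223 FPKM. In none of these 3 genes did a control reach the lowest air-dried library, and air-dried 3 was the highest in all 3.

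At the other end, the rule cut through a continuous range. The last 3 genes inside had lowest-to-highest ratios of 1.52, 1.52 and 1.51, and the first 3 outside had 1.49, 1.49 and 1.49. The last one inside measured 22.7, 24.7 and 27.4 FPKM in the controls and 41.4, 47.2 and 47.1 FPKM after drying. The first one outside measured 18.5, 17.4 and 19.3 FPKM in the controls and 30.6, 31.1 and 28.7 FPKM after drying. Their mean ratios were 1.81 and 1.64, so the edge separates genes of similar behaviour. At the lower edge of level, 7 of the 110 genes had a control mean under 11 FPKM, and 9 annotated genes from 9 to under 10 FPKM met the same ratio.

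The share of genes meeting the ratio was lower from 50 FPKM upward. It was 1.09% of annotated genes with a control mean of 10 to under 20 FPKM (51 of 4677), 1.15% from 20 to under 50 FPKM (49 of 4264), 0.648% from 50 to under 100 FPKM (9 of 1389) and 0.0912% from 100 to under 500 FPKM (1 of 1096). Outside the range, the same ratio was met by 274 of 9334 annotated genes at 1 to under 10 FPKM (2.94%) and by 0 of 180 at 500 FPKM or more. The largest mean ratio was 25.6 in the class of 10 to under 20 FPKM, 14.3 from 20 to under 50 FPKM and 3.26 from 50 to under 100 FPKM. The median mean ratio of the genes meeting the rule differed less, at 2.44, 2.56 and 1.88 in the same classes. The 1 gene from 100 to under 500 FPKM had 2.18. The mirrored rule, with the highest air-dried value at most the lowest control value divided by 1.5, was met by 27 level-matched genes (0.236%).

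In the limma fit of all 22559 tested genes, 109 of the 110 genes were called higher after drying (Benjamini-Hochberg adjusted p under 0.05), where 3.61% of all tested genes and 2.1% of the level-matched genes were called. The rule used the same contrast, so nothing is read from this count. Every one of the 110 genes was at 1 FPKM or more in all 3 controls, so none passed the filter on low values through its air-dried libraries alone. Their median log2 fold change was 1.23, against 0.0037 for all tested genes, and the values ran from 0.64 to 4.56. A further 131 level-matched genes were called higher without meeting the rule, with a median log2 fold change of 0.56. The 110 genes thus held 45.4% of the 240 level-matched genes called higher.

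**Figure D2:**
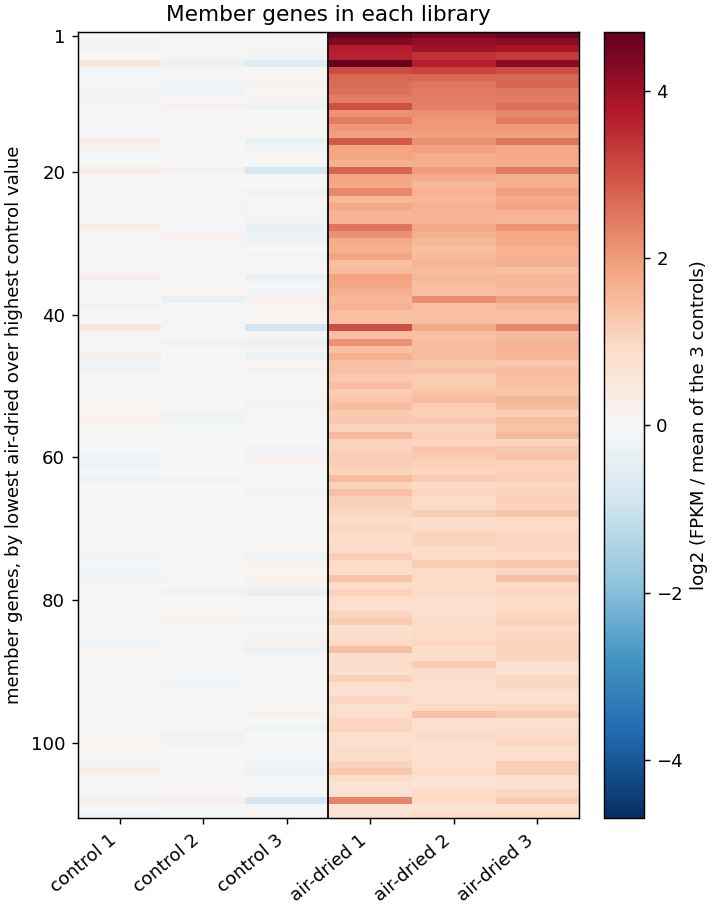
Rows are the 110 genes, ordered by the ratio of the lowest air-dried to the highest control value, and columns are the 6 libraries. Colour gives log2 of the FPKM over the mean of the 3 controls. The first rows are the darkest in the air-dried columns, and a few rows are higher in air-dried 1 and lower in control 3 than in the other libraries of their group.

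The replicates of most of the 110 genes agreed closely. The coefficient of variation had a median of 7.75% before drying and 7.94% after it, against 8.63% and 8.75% in the level-matched genes. Since the rule admits a gene only when its groups are separate, it favours small spreads. In 4 genes it was under 3% in both groups. One of these, in place 58 on chromosome 19, measured 34.6, 34.9 and 35.8 FPKM in the controls and 71.7, 71.3 and 73.1 FPKM after drying. That gene was at a near-constant level within each group and about doubled between them.

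A small set of 6 genes scattered more widely, with a coefficient of variation over 25% in at least 1 group, and all 6 scattered in the same way. In each of them control 3 was the lowest control, air-dried 1 the highest air-dried library and air-dried 2 the lowest. The gene in place 5, on chromosome 1, measured 22.9, 12.6 and 10.3 FPKM in controls 1 to 3 and 404, 198 and 291 FPKM in air-dried 1 to 3. The gene in place 42, on chromosome 2, measured 28.8, 21.2 and 10.5 FPKM in the controls and 163, 69.8 and 97.1 FPKM after drying. In both genes the highest library of a group was more than 2 times the lowest, and the groups were separate, as the rule requires. Over the 6 genes, control 1 was 1.28 to 2.75 times control 3, and air-dried 1 was 1.62 to 2.54 times air-dried 2. One of them, in place 108 on chromosome 6, was the 1 gene of the 110 not called by limma (adjusted p = 0.143), with 20.7, 19.3 and 9.56 FPKM in the controls and 80.2, 31.6 and 38.6 FPKM after drying. This library order was not confined to the 6 genes: it was seen in 27.3% of the 110 genes and in 21.8% of the level-matched genes. The 6 genes were singled out after their values were seen, and the part of the libraries in their scatter was not tested.

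Within the air-dried group, air-dried 2 was the lowest library in 59 of the 110 genes (53.6%) and in 41.2% of the level-matched genes. Air-dried 1 was the lowest in 33 of the 110, whereas among the level-matched genes it was the lowest most often (42.1%). Air-dried 1 was the highest in 52 (47.3%) and in 40.4% of the level-matched genes. Among the controls, control 3 was the lowest in 44 of the 110 genes, close to the 38% of the level-matched genes, among which control 1 was the lowest most often (40.8%). The median log2 ratio of the 110 genes to their control means, on the log2(FPKM + 1) scale, was 1.31, 1.17 and 1.32 in air-dried 1, 2 and 3, with air-dried 2 slightly below the others.

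Removing a library added genes to the list and took away at most 1. Without control 1, 2 or 3 the same rule was met by 128, 117 and 135 genes, and without air-dried 1, 2 or 3 by 134, 127 and 112. All 110 genes stayed in the list each time, except that 1 was lost without control 1. In these settings 70 further genes met the rule at least once, and control 3 (25 genes) and air-dried 1 (24 genes) each kept out the most. With both of these libraries removed, 229 genes met the rule, and all 110 were among them. With fewer libraries the rule is easier to meet, so larger lists follow from its construction. These 2 libraries were paired because earlier results of these data had placed them between the groups, and no other pair was removed.

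**Figure D3:**
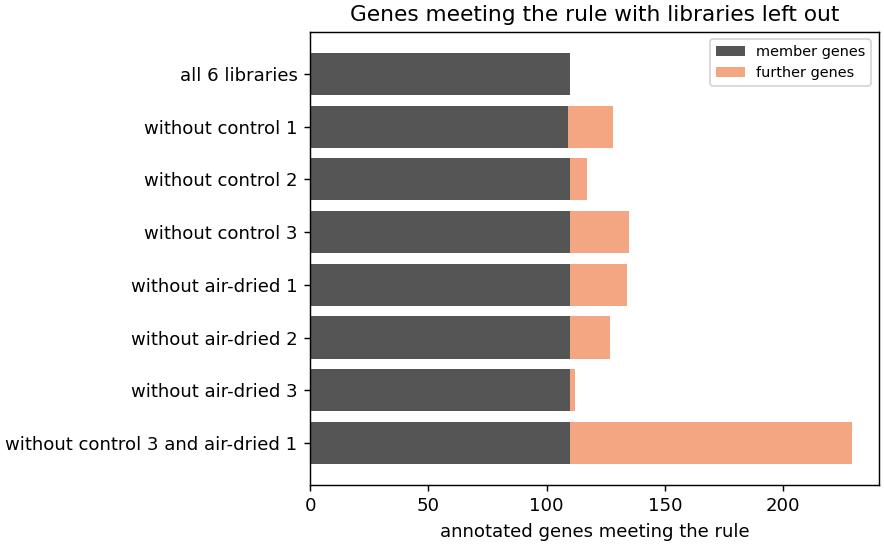
Bars give the number of annotated genes meeting the rule with all 6 libraries, with each library left out and with both control 3 and air-dried 1 left out. Grey is the part made of the 110 genes and orange the further genes, 119 in the last bar.

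The 110 genes were compact in structure, which the rule did not use. Their median genomic span (introns included) was 1962.5 bp, against 3952 bp for the level-matched genes. No more than 1 transcript was listed in 55 of the 110 (50%), against 15.1% of the level-matched genes. Listed transcripts, and with them the spans, include those assembled from reads. By annotated transcripts alone the difference was smaller: exactly 1 was listed in 95 of the 110 (86.4%), against 75.5% of the level-matched genes. Of the level-matched genes with 1 listed transcript 3.18% met the rule (55 of 1728), and of those with several 0.567% did (55 of 9698). By number of transcripts the share was 1.11% at 2 transcripts, 0.591% at 3 to 5 and 0.185% at 6 or more. Control levels were close, with a median control mean of 20.1 FPKM in the single-transcript genes of the list and 22.2 FPKM in those with several. The median ratio of the means was 2.86 in the single-transcript genes and 2.22 in the others. These shares are given as a description, without a test.

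The share peaked at a span of 1000 to under 2000 bp and was higher in genes with 1 transcript than in genes with several in each class under 4000 bp. Among single-transcript genes the share meeting the rule was 2.44% under 1000 bp, 5.12% from 1000 to under 2000 bp and 2.44% from 2000 to under 4000 bp. Among genes with several transcripts it was 1.08%, 2.29% and 0.802% in the same classes. From 4000 to under 8000 bp, 3 of 4026 genes met the rule (0.0745%), all 3 with several transcripts. From 8000 bp upward it was 7 of 1591 (0.440%). Within single-transcript genes alone the difference in span was smaller, with a median of 1478 bp against 1773.5 bp for the level-matched ones. The median coefficient of variation of level-matched genes was 10.1% in controls and 10.7% in air-dried libraries with 1 transcript, and 8.43% and 8.46% with several, and the part of this spread in the shares was not tested.

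**Figure D4:**
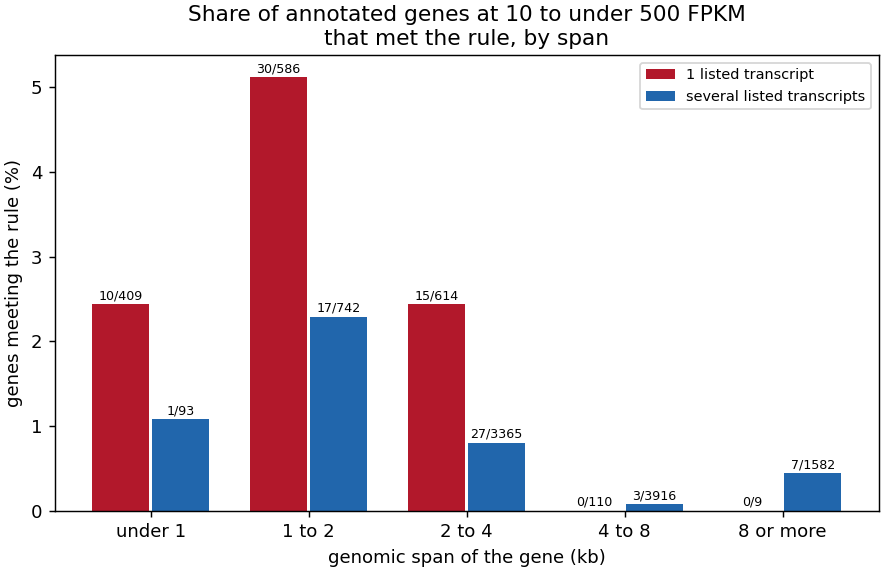
Bars give the percentage of level-matched annotated genes that met the rule, by genomic span in kb, for genes with 1 listed transcript (red) and with several (blue), and the numbers above are members over genes. The share was highest at 5.12% for single-transcript genes of 1 to 2 kb.

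In genes with several transcripts, the transcript that led in the controls nearly always led after drying. The 55 such genes listed 214 transcripts, 79 annotated and 135 assembled from reads. The leading transcript was the same in both groups in 53 of them, and in the controls it was an annotated one in 45. The annotated transcripts held a median of 85.7%, 90.8% and 89.4% of the gene's FPKM in controls 1, 2 and 3 and 85.9%, 87.4% and 84.4% in air-dried 1, 2 and 3. In level-matched genes with several transcripts this median was 55.3% to 58.2% in all 6 libraries. The annotated share moved by less than 10 percentage points in 43 of the 55 genes. It was lower after drying by 10 points or more in 8 and higher in 4.

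**Figure D5:**
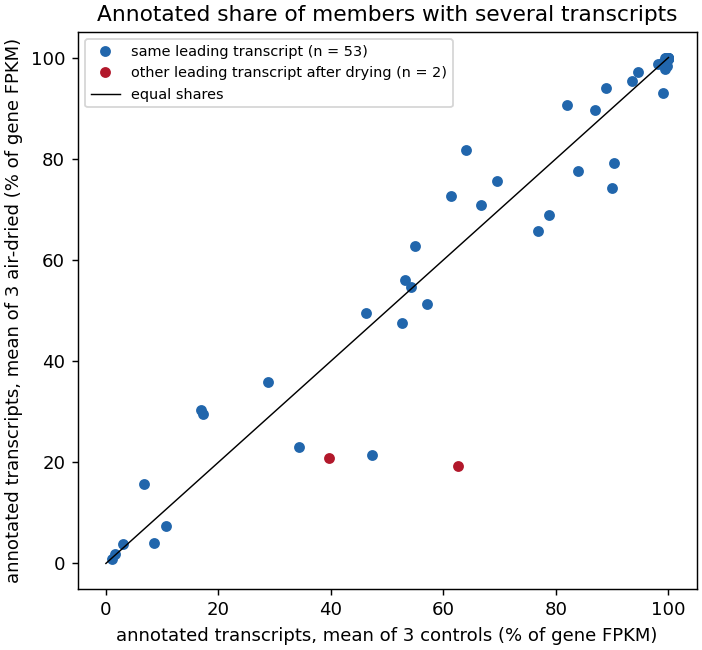
Each point is 1 of the 55 genes with several listed transcripts, with the mean share of its FPKM in annotated transcripts (in percent) over 3 controls on the horizontal axis and over 3 air-dried libraries on the vertical axis. Most points lie near the line of equal shares, and the 2 genes whose leading transcript differed between the groups (red) lie below it.

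The clearest shift was in the gene in place 28, on chromosome 16. Its annotated transcript measured 13.3, 13.1 and 9.06 FPKM in controls 1 to 3, and after drying 38.4, 5.43 and 11.6 FPKM in air-dried 1 to 3, so the groups overlapped. An assembled transcript of 1003 bp measured 10.5, 4.99 and 3.54 FPKM in the controls and 70.5, 37.8 and 39.2 FPKM after drying, with no overlap. A further assembled transcript, of 985 bp, was near 0 in controls 1 and 2 and measured 2.675 FPKM in control 3. After drying it was near 0 in air-dried 1 and measured 21.8 and 30.6 FPKM in air-dried 2 and 3. The annotated share went from 62.6% to 19.3%. At the level of single transcripts none of its transcripts was called (limma adjusted p = 0.0621 for the assembled one of 1003 bp). Their spans were similar (963 to 1003 bp), and splitting fragments between such similar transcripts is uncertain. This gene was also 1 of the 6 with wide scatter.

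Single transcripts gave fewer calls than gene sums. Of 269 transcripts listed for the 110 genes, 176 were tested and 87 were called higher, where 0.778% of all 41109 tested transcripts were. The rule again used this contrast, so the count is a description. Annotated transcripts made up 75 of the 87 (115 were tested) and assembled ones 12 (61 were tested). At least 1 transcript was called higher in 85 of the 110 genes. The shares called over all annotated and over all assembled transcripts are not given here, so the classes are not compared. No transcript of these genes was called lower (0), and nothing is read from this, because the genes were chosen for a rise of their sums. With annotated transcripts alone summed, 92 of the 110 genes kept the 1.5-fold ratio and 88 also kept a control mean of at least 10 FPKM. In 15 genes more than 50% of the rise in the mean lay in assembled transcripts.

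Some entries of the list stand for more than 1 annotated gene. In 7 of the 110 genes (6.36%, against 11.1% of the level-matched genes) the assembly had joined 2 to 5 annotated loci into 1 identifier, with spans of 2167 to 45423 bp. These 7 held 20 annotated loci, of which 8 were at 1 FPKM or more in all air-dried libraries. In 4 of the 7 at least 1 annotated locus itself met the 1.5-fold ratio, and in 3 none did. The entry in place 77, on chromosome 1, joins 2 loci. One measured 16.9, 16.5 and 16.2 FPKM in the controls and 47.4, 33.1 and 45.4 FPKM after drying, and the other was listed at 0 in every library. The rise of this entry is thus that of 1 annotated locus.

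The entry in place 100, on chromosome 9, shows the opposite case. It joins 4 annotated loci over 45423 bp and lists 29 transcripts. Its best expressed annotated locus measured 17.2, 17.0 and 10.6 FPKM in the controls and 16.0, 11.5 and 16.9 FPKM after drying, so the groups overlapped. The assembled transcripts together measured 22.5, 21.0 and 31.5 FPKM in the controls and 52.5, 57.8 and 62.6 FPKM after drying. The rise of this entry was thus listed under assembled transcripts that run across several annotated loci. Its leading transcript differed between the groups, and the values of its long assembled transcripts changed from library to library, with several near 0 in some libraries and over 10 FPKM in others of the same group.

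Overlap with other genes matters because the library kit does not mark the strand of a fragment. Of the 110 genes, 8 (7.27%) overlapped another gene of the files, against 12.2% of the level-matched genes, and 5 of the 8 had an overlapping gene on the opposite strand. Of the 14 genes overlapping them, 1 had an air-dried mean of at least 10 FPKM. It lies opposite the gene in place 11, on chromosome 13. That gene measured 44.1, 49.2 and 36.3 FPKM in the controls and 353, 222 and 260 FPKM after drying. The overlapping gene measured 4.12, 3.44 and 3.69 FPKM and then 26.2, 15.4 and 15.6 FPKM, and it too rose (log2 fold change 2.04, limma adjusted p = 0.0044). The gene in place 11 had its FPKM mostly in 2 long assembled transcripts. One, of 43302 bp, measured 32.0, 38.7 and 35.6 FPKM in the controls and 280.4, 214 and 242 FPKM after drying. The other, of 42921 bp, measured 11.2 and 9.97 FPKM in controls 1 and 2, was near 0 in control 3, and measured 70.7, 2.17 and 13.0 FPKM after drying. The overlapping gene had most of its FPKM in 1 assembled transcript of 42853 bp. The annotated transcripts of 1956 and 1921 bp stayed at 6.51 FPKM or less in every library. Reads of the 2 genes cannot be told apart by strand, so both values are uncertain.

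The 110 genes were spread over the genome. They lay on 18 of the 19 chromosomes and 1 unplaced scaffold, 52 on the plus and 58 on the minus strand. Chromosomes 1 and 6 held 12 each (0.873% and 1.31% of their level-matched genes), and chromosome 17 held 0 of its 329 level-matched genes. The share of level-matched genes on a chromosome that met the rule ran from 0 to 1.64%, the highest on chromosome 15 (7 of 427). No 2 of the 110 genes were next to each other in the order of annotated genes (0 pairs). Within 100 kb of each other lay 6 pairs, so 12 genes (10.9%) had another of the 110 that close, against 6.69% of the other level-matched genes. The closest pair, in places 30 and 14 on chromosome 18, was 27545 bp apart on opposite strands, with 5 annotated genes between them.

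The genes beside them did not share the rise as a group. The 110 genes had 220 adjacent annotated genes outside the list, of which 129 passed the filter on low values. Of these 129, 5 were called higher (3.88%) and 2 lower, and their median log2 fold change was 0.019. Of all 22559 tested genes, 3.61% were called higher, and 157 genes were called lower.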

How the data were processed

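The deposited values are FPKM per transcript, 1 file per library, with no scaling between libraries stated, per the file headers. FastQC, TopHat and Cufflinks were used, per the submitters' processing notes. The build, the annotation and any filter were not given in the sources used here. TruSeq RNA libraries from poly(A) RNA, which keep no strand, were read as 100 bp paired ends, per the labels' protocols. Coordinates are as the files give them.

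FPKM was summed per gene identifier. A gene entered the test when 3 or more of the 6 libraries reached 1 FPKM. The test was limma 3.58.1 (R 4.3.3, 2-sided, with an intensity trend) of log2(FPKM + 1) on group alone, Benjamini-Hochberg adjusted over all tested genes. Fold changes of low genes are understated on this scale. Transcripts were tested likewise. The limma script was first tested on simulated data. No 2 libraries were copies (at most 0.607% of tested genes within 0.1% of each other).

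The members, lists and tests were chosen with earlier results of these data known. Identifiers were printed for the gene with the largest lowest-to-highest ratio and the gene with the highest control mean. Gene lists and cell type markers by name were not used, because the files pair no names (0) with identifiers. Descriptions of sequence were not made for the same reason. Alternatives covered the pseudocount, filter, scaling, annotated transcripts, libraries left out, the replicate number as a block, and the thresholds of the rule.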

Additional observations from a re-analysis of the deposited data

How the results depend on the processing

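The count of 110 genes meeting the rule was 225 with a looser ratio in place of 1.5, 56 with a ratio of at least 2, 176 when the control mean could start at 5 FPKM, 59 when it started at 20 FPKM, and 229 without control 3 and air-dried 1. It was 106 with median scaling (105 of the 110 among them), 89 with annotated transcripts alone (88 among them), and 112 to 135 with 1 library left out. Over 15 alternative fits 94 to 109 of the 110 genes were called higher, 99 to 107 with 1 library left out. Their median log2 fold change of 1.23 was 1.10 with a pseudocount of 5 FPKM and 1.23 to 1.28 with 1 library left out; a larger pseudocount lowers it by construction. POPTR_0007s01110 stayed past the threshold in all 15 alternatives (limma adjusted p = 7.66e-06 to 0.00183), and POPTR_0010s24290.r1 lost its call in 6.

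Over all tested genes, 814 were called higher and 157 lower. Testing only genes that averaged 5 FPKM or more, which are fewer, gave 468 higher and 85 lower. Sums over annotated transcripts gave 486 and 52. Without control 3 and air-dried 1 there were 784 higher and 543 lower. With 1 library left out there were 435 to 581 higher (435 without air-dried 3, 490 without control 2, 507 without air-dried 2, 524 without control 1) and 42 to 120 lower (42 without air-dried 3, 46 without control 2, 54 without control 1, 61 without air-dried 2, 86 without air-dried 1). The causes were not tested. With the replicate block 497 were higher and 60 lower, and 103 of the 110 genes were called. Nothing says that the replicate numbers pair plants, so they were not taken as pairs. Deviations of same-numbered libraries correlated at 0.24, −0.15 and 0.12, and 3 of 6 libraries correlated best with their own number. With so few libraries these values cannot decide whether the numbers pair plants. Depth is unknown, so it cannot be said which small differences it hides.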
